A study of Mus musculus with 12 samples.

Results

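Transcripts of 8 receptors of the tumor necrosis factor (TNF) receptor family were examined in mouse embryonic fibroblast (MEF) cells: Tnfrsf22, Tnfrsf23, Tnfrsf26, Tnfrsf10b, Fas, Tnfrsf1a, Tnfrsf1b and Tnfrsf12a. They are 8 of the 46765 names listed in the deposited tables. They were chosen by name, with earlier results of these data known, among them the comparison of 2MUT with Control. All 8 are listed in both tables. RNA-seq was carried out on 12 libraries, 3 in each of 4 groups. All groups share a background, spontaneously immortal fibroblasts of the C57BL/6 strain (embryonic day 13.5). Control cells carried the empty retroviral vector, and the 2MUT line was made with the same vector carrying FLAG-tagged mutant human IDH2, both after selection with puromycin. For 2-HG(+), MEF cells, for which the labels name no vector, received a cell-permeant form of 2-HG at 300 μM during 24 h, and 2-HG(-) cells received none. The labels describe the 2-HG(-) cells as given DMSO, whereas the text of the study calls them non-treated. No library of cells expressing wild-type IDH2 was analysed here, so that the presence of extra IDH2 and its mutation cannot be told apart. No further line of 2MUT or Control is named. Differences between the lines that arose in transduction, selection or culture cannot be told apart from IDH2 either. Nothing in the labels says that replicates came from separate cultures, and p-values weigh a group difference against the spread between these libraries only.

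The family divides by the tail inside the cell. Fas, Tnfrsf1a (TNF receptor 1) and Tnfrsf10b (the mouse death receptor for TRAIL) carry a death domain, through which they recruit the adaptors Fadd or Tradd and the initiator caspase Casp8. Tnfrsf22 and Tnfrsf23 bind TRAIL without a working death domain and are known as its mouse decoy receptors, and Tnfrsf26 is a related gene beside them. Tnfrsf1b (TNF receptor 2) and Tnfrsf12a (Fn14, the receptor of TWEAK) lack a death domain and signal through TRAF proteins. Fibroblasts are known to express TNF receptor 1, Fas and Fn14.

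Tnfrsf26, Tnfrsf22 and Tnfrsf23 lie side by side on the reverse strand of chromosome 7 in the mouse genome GRCm38, at chr7:143607659-143628722, chr7:143634806-143649661 and chr7:143665809-143685872, and the cluster spans 78.2 kb. The other 5 genes lie apart, Tnfrsf10b at chr14:69767472-69784411, Fas at chr19:34290666-34327772, Tnfrsf1a at chr6:125349362-125362484, Tnfrsf1b at chr4:145213463-145246870 and Tnfrsf12a at chr17:23675445-23677468. The coding sequences of Tnfrsf22 (594 bases, stop codon left out) and Tnfrsf23 (528 bases) are identical at 479 of 528 aligned bases, or 90.7%. Against Tnfrsf26 (612 bases), the identity was 65.2% for Tnfrsf22 and 61.6% for Tnfrsf23. A stretch of 137 coding bases is shown because reads from it could be assigned to either decoy receptor. It holds a run of 102 identical bases, and the capitals mark the 3 positions at which the genes differ.
Tnfrsf22, coding bases 401 to 537: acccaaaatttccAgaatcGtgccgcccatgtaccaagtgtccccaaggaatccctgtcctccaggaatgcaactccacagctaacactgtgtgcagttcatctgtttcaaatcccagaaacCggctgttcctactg
Tnfrsf23, coding bases 371 to 507: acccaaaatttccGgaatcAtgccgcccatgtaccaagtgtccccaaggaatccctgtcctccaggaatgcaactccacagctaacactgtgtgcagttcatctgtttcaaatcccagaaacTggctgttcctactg
Over all annotated transcripts of both genes, the longest identical run was 306 bases. The positions of the amplified targets were not used here, and the values of Tnfrsf22 and Tnfrsf23 are uncertain to the extent that reads could be counted on the other gene.

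The libraries of Control and 2MUT held 6472439 to 7313602 reads on genes, and those of 2-HG(-) and 2-HG(+) held 14959318 to 18363768. Values are reads per 1000000 reads on genes (RPM), and 3 reads correspond to 0.41 to 0.464 RPM in the first experiment and to 0.163 to 0.201 RPM in the second. The kit amplifies a short target of each transcript, so that levels of different genes are not compared. The tables list different sets of entries, 43280 and 23930, and were normalized separately, and levels from both are only set side by side. Names shared by the tables held 97.5 to 97.9% of the reads in the first and 98.7 to 98.8% in the second. Fibroblast markers summed to 13378 RPM or more in every library. The sum was 15040 to 17010 RPM in Control and 13378 to 13822 RPM in 2MUT, with 7 of 9 tested markers lower and 1 higher. It was 21646 to 23290 RPM in 2-HG(-) and 15256 to 16280 RPM in 2-HG(+), with 5 of 9 lower and 1 higher. Immune markers summed to 7.16 to 12.4 RPM in the first experiment, to 12.1 to 14.6 RPM in 2-HG(-) and to 8.93 to 11.1 RPM in 2-HG(+), where 1 of 2 tested was lower, and to at most 2.01 RPM without Cd68, a lysosomal protein that is not restricted to immune cells, epithelial markers to at most 0.878 RPM and endothelial markers to at most 3.71 RPM. The part of the fall in fibroblast markers in the results below was not tested, and fewer cells of a type and less RNA per cell cannot be told apart.

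**Figure D1:**
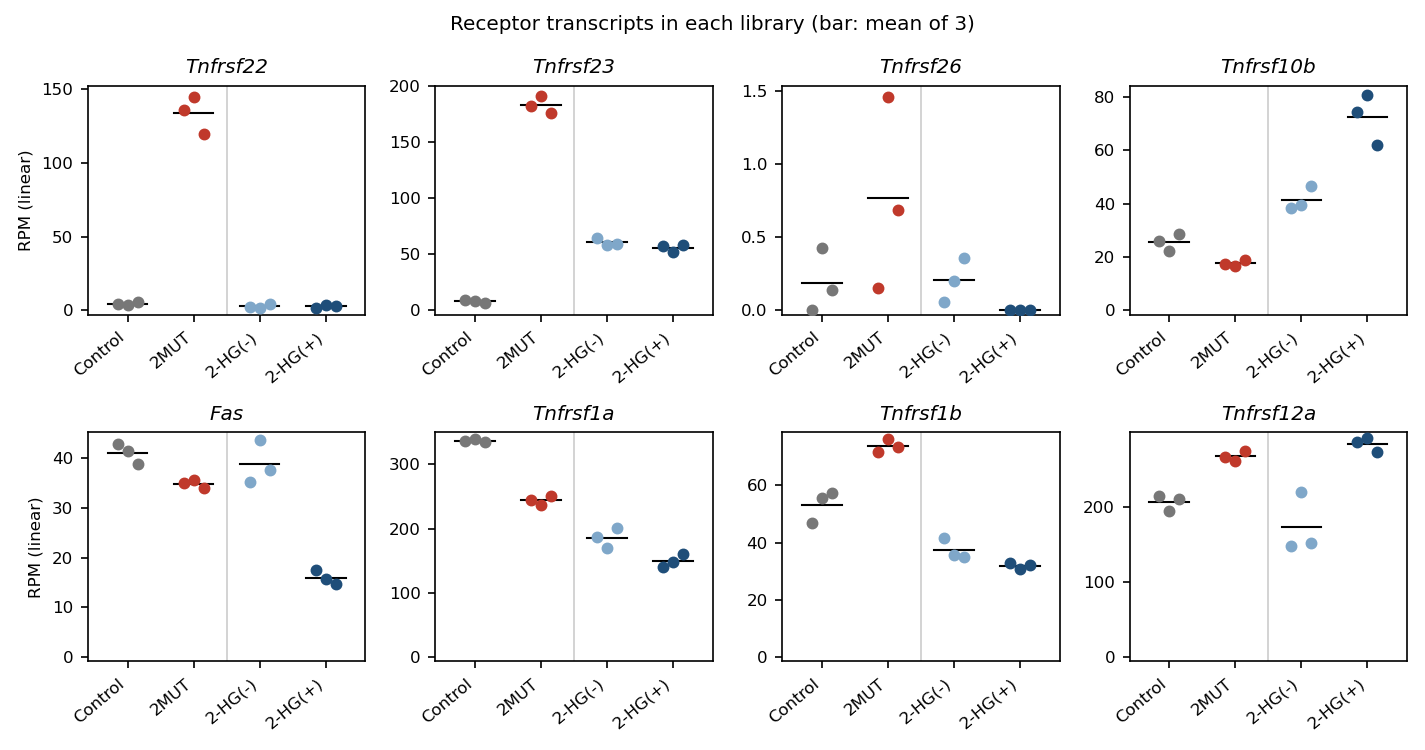
RPM (vertical axes, linear, each with its own range) of the 8 receptors in each library of Control, 2MUT, 2-HG(-) and 2-HG(+). Points are libraries and bars are means of 3. Tnfrsf22 and Tnfrsf23 lie above 119 and 176 RPM in the 2MUT libraries and at or below 5.88 and 9.62 RPM in Control.

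The decoy receptors showed the widest separation of 2MUT from Control among the 8 genes. Tnfrsf22 was at 4.14, 3.70 and 5.88 RPM in the Control libraries and at 136, 145 and 120 RPM in 2MUT. The means were 4.58 ± 1.15 and 133 ± 12.7 RPM (SD, n = 3), a ratio of 29.2. Every 2MUT library was above every Control library, from 97 reads in all of Control and 2739 in all of 2MUT. Tnfrsf23 was at 9.62, 8.55 and 6.43 RPM in Control and at 182, 191 and 176 RPM in 2MUT. Its means were 8.20 ± 1.62 and 183 ± 7.37 RPM, a ratio of 22.3. On the log2(RPM + 1) scale, the changes were 4.61 ± 0.17 (SE) for Tnfrsf22 and 4.34 ± 0.15 for Tnfrsf23. These values belong to the comparison for which the genes were chosen and are given without a test. Tnfrsf26 stayed near the level of single reads, with 0, 3 and 1 reads in Control and 1, 10 and 5 in 2MUT. Its groups overlapped, and it did not reach the mean of 1 RPM needed for the test.

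Under 2-HG treatment, neither decoy receptor passed the test. Tnfrsf22 was at 2.23, 1.67 and 3.96 RPM in 2-HG(-) and at 1.72, 3.79 and 2.74 RPM in 2-HG(+), and the groups overlapped. The log2 fold change was 0.06 (95% interval -0.53 to 0.66, adjusted p = 0.88 by limma over all genes tested). Tnfrsf23 was at 64.5, 58.6 and 59.6 RPM in 2-HG(-) and at 57.0, 52.4 and 58.6 RPM in 2-HG(+), again with overlap. Its log2 fold change was -0.12 (interval -0.34 to 0.10, adjusted p = 0.39). Both intervals end below 0.7 on the log2(RPM + 1) scale. The added 1 makes the change of a gene as low as Tnfrsf22 look smaller. The difference from the change in 2MUT was not tested. Tnfrsf26 had 1, 3 and 6 reads in 2-HG(-) and none in the 2-HG(+) libraries, where 3 reads would be 0.18 to 0.198 RPM, and no fold is given at such counts.

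Levels from both tables are set side by side here without a test, since the tables were normalized separately. Tnfrsf23 averaged 8.20 ± 1.62 RPM in Control and 60.9 ± 3.15 RPM in 2-HG(-), and Tnfrsf22 averaged 4.58 ± 1.15 and 2.62 ± 1.19 RPM. In order of listed level, Tnfrsf23 ran from Control through 2-HG(+) and 2-HG(-) to 2MUT, and the libraries of 2-HG(+) and 2-HG(-) overlapped. For Tnfrsf22 the order was 2-HG(-), 2-HG(+), Control and 2MUT, with overlap between neighbours among the first 3. The vector, the culture and the set of entries differ between the experiments and cannot be told apart.

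For the receptors with a death domain, the values in 2MUT are likewise given as a description, without a test. Tnfrsf10b was at 25.9, 22.2 and 28.6 RPM in Control and at 17.5, 16.7 and 19.0 RPM in 2MUT, a log2 fold change of -0.50 ± 0.15 (SE). Tnfrsf1a was at 337, 340 and 335 RPM in Control and at 244, 236 and 251 RPM in 2MUT, a change of -0.47 ± 0.08. Fas was at 42.9, 41.6 and 38.8 RPM in Control and at 35.1, 35.6 and 34.0 RPM in 2MUT, a change of -0.23 ± 0.12. All 2MUT libraries were below all Control libraries in each of these 3 genes, as in 24% of all genes tested.

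Under 2-HG, the same 3 receptors did not move together. Tnfrsf10b was at 38.3, 39.6 and 46.5 RPM in 2-HG(-) and at 74.4, 80.9 and 62.0 RPM in 2-HG(+). It rose 1.75-fold, with no overlap of the groups (log2 fold change 0.79 ± 0.13, interval 0.50 to 1.08, adjusted p = 0.0015), and the adjusted p ranged from 1.1e-06 to 0.032 over 15 alternatives. Fas was at 35.3, 43.8 and 37.6 RPM in 2-HG(-) and at 17.5, 15.8 and 14.6 RPM in 2-HG(+). Its mean was 2.44 times as high without 2-HG, and all treated libraries lay below all others. The fall passed the test (log2 fold change -1.23 ± 0.13, interval -1.52 to -0.95, adjusted p = 0.00011), also under all 15 alternatives (2.9e-13 to 0.0093). Tnfrsf1a, the receptor that starts most TNF responses, was at 187, 170 and 201 RPM in 2-HG(-) and at 139, 148 and 161 RPM in 2-HG(+). It fell by 0.31 on the log2 scale (SE 0.10, adjusted p = 0.041), and the adjusted p ranged from 0.023 to 0.16 over the alternatives. The call was lost without 2-HG(-) replicate 1 (-0.31), 2-HG(-) replicate 3 (-0.25), 2-HG(+) replicate 1 (-0.26) or 2-HG(+) replicate 2 (-0.31).

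Of the receptors without a death domain, Tnfrsf1b was at 46.8, 55.7 and 57.3 RPM in Control and at 71.7, 76.3 and 73.3 RPM in 2MUT. The groups did not overlap, and the log2 fold change was 0.47 ± 0.12. In the other experiment, Tnfrsf1b was at 41.5, 35.6 and 35.1 RPM in 2-HG(-) and at 32.8, 30.7 and 32.1 RPM in 2-HG(+). These groups did not overlap either, but the gene did not pass the test (-0.22, interval -0.47 to 0.03, adjusted p = 0.16). Tnfrsf12a was at 215, 195 and 210 RPM in Control and at 267, 261 and 274 RPM in 2MUT, a change of 0.37 ± 0.09 with no overlap. It was at 148, 219 and 151 RPM in 2-HG(-), where 1 library stood apart, and at 287, 292 and 273 RPM in 2-HG(+). It rose 1.64-fold under 2-HG (log2 fold change 0.74 ± 0.15, adjusted p = 0.0041), with adjusted p between 0.00016 and 0.065 over the alternatives.

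The counts in 2MUT are a description from which nothing is read, since this comparison was known when the genes were chosen. Of the 8 receptors, 7 entered the fit across all genes, where 4 were past the threshold as higher (Tnfrsf22, Tnfrsf23, Tnfrsf1b and Tnfrsf12a) and 2 as lower (Tnfrsf10b and Tnfrsf1a), while Fas was not past it. Over all 11065 genes tested, 16.5% were higher, 17.3% lower and 33.8% either, and the median change was 0.008. The groups did not overlap in all 7, as in 47.5% of all genes. The lower count was 1 without Control replicate 1, Control replicate 3, 2MUT replicate 1 or 2MUT replicate 2, where Tnfrsf10b, at -0.49, -0.42, -0.49 and -0.46, was no longer past the threshold. Under 2-HG, 7 were tested, 2 rose (Tnfrsf10b and Tnfrsf12a) and 2 fell (Fas and Tnfrsf1a), beside 16.1% and 16.7% of all 10384 genes tested, with a median change of -0.021. The share of receptors past the threshold is to be read against 32.8% of all genes. The groups did not overlap in 5 of the 7, Tnfrsf10b, Tnfrsf12a, Fas, Tnfrsf1a and Tnfrsf1b, as in 46.3% of all genes. The comparisons have no library in common. Tnfrsf1a was lower in both and Tnfrsf12a higher in both, while Tnfrsf10b and Tnfrsf1b lay on opposite sides of 0, Tnfrsf1b without passing the test under 2-HG.

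**Figure D2:**
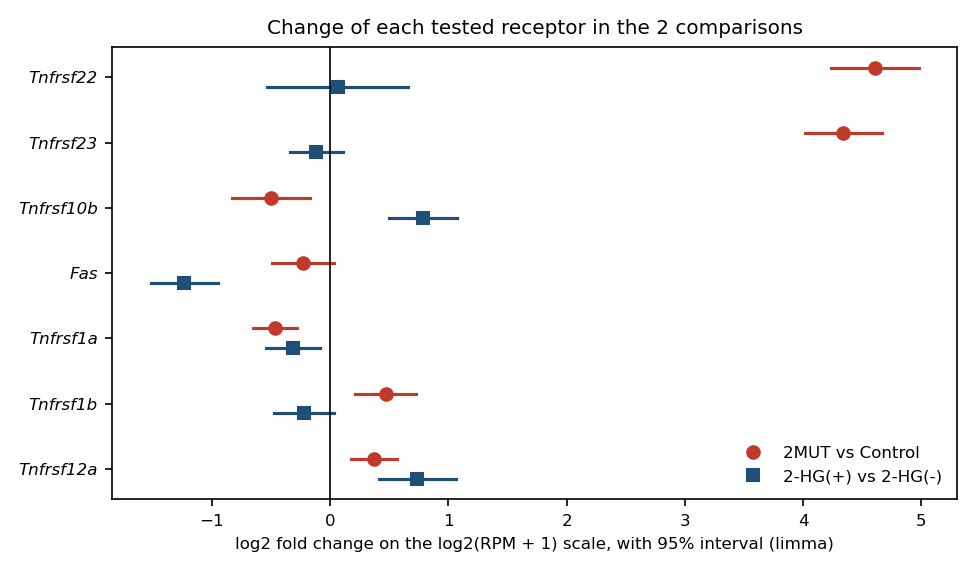
Log2 fold change on the log2(RPM + 1) scale (horizontal axis) with its 95% interval from limma for the 7 tested receptors, 2MUT vs Control (red circles) and 2-HG(+) vs 2-HG(-) (blue squares). The decoy receptors lie at 4.61 and 4.34 in 2MUT and at 0.06 and -0.12 under 2-HG, and Fas has the lowest value, -1.23, under 2-HG. Intervals in 2MUT are a description, since the receptors were chosen with that comparison known.

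RefSeq promoter windows (GRCm38.p6, 250 bases before to 50 after the start) were matched for 5 of the 8 receptors, Tnfrsf1b, Tnfrsf1a, Tnfrsf23, Tnfrsf12a and Fas. The windows of Tnfrsf23, Fas and Tnfrsf12a are shown because these genes had the largest changes among the 5. Capitals mark GGGCGG, the core bound by Sp1, and TGANTCA, the AP-1 element, on either strand.
Tnfrsf23, chr7:143685826-143686125, reverse strand: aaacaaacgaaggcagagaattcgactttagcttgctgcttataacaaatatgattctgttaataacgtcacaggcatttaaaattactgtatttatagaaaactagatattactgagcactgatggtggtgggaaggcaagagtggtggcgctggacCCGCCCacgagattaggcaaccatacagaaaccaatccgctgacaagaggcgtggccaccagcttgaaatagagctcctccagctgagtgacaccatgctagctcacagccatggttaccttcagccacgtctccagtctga
Fas, chr19:34290409-34290708, forward strand: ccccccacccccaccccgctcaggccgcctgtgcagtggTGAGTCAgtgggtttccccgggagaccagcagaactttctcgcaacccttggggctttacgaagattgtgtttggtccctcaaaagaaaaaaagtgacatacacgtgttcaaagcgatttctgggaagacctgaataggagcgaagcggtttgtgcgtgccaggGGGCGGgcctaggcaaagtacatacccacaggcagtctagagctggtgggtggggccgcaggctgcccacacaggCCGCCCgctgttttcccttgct
Tnfrsf12a, chr17:23677400-23677699, reverse strand: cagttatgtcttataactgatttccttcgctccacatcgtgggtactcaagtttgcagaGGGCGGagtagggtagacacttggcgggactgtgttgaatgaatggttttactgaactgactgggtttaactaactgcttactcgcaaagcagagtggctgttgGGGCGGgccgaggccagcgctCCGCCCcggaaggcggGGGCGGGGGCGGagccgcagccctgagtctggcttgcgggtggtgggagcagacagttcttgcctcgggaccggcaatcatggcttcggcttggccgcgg
GGGCGG was found 5 times in the Tnfrsf12a window, 2 times in those of Fas and Tnfrsf1b, 1 time in that of Tnfrsf23 and 0 times in that of Tnfrsf1a. It occurs in 35.7% of all 32851 windows. TGANTCA was found 1 time, in the Fas window, and in 7.81% of all windows. TGACGT, found in 7.51% of windows, and TATAAA, found in 13.6%, each matched 1 time in the Tnfrsf23 window. ACGTG, found in 19.6%, matched 1 time there and 2 times in the Fas window, where the matches on opposite strands overlap. The NF-kB consensus, found in 4.51% of windows, and the p53 half-site, found in 8.36%, did not match in these 5 windows. A match describes letters only.

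Most ligands of these receptors were listed at or near 0. Fasl, the ligand of Fas, had 0 reads in all 12 libraries. Tnf had 1 read in the first experiment and 0 in the second, and Lta, which binds the same receptors, had 2 and 4. Tnfsf12 (TWEAK) is listed at 0 in the first table and is not listed in the second. Cycs, the cytochrome c gene that every cell uses and that is named after its values were seen, had 1 read in the first table and is not listed in the second either, so that a value at or near 0 there does not show that a transcript was absent. Tnfsf10, which encodes TRAIL, the ligand of Tnfrsf10b and of both decoy receptors, was the exception. It was at 11.1, 6.84 and 5.33 RPM in Control and at 1.24, 0.586 and 0.826 RPM in 2MUT. It fell by 2.18 on the log2(RPM + 1) scale (SE 0.28, adjusted p = 0.00017), from 162 reads in all to 18, and the added 1 makes the change of so low a gene look smaller. Under 2-HG it was below the filter, at 1.20 ± 0.695 RPM (61 reads) in 2-HG(-) and 0.110 ± 0.138 RPM (5 reads) in 2-HG(+), with no overlap of the groups. In the fit without a filter, its log2(RPM + 1) fold change was -0.95 ± 0.20 (SE, adjusted p = 0.012), a scale that understates the change of a gene near or below 1 RPM. Of the 18 ligand genes listed, 5 could be tested in 2MUT, with 1 higher and 1 lower (median -0.17), beside 16.5% and 17.3% of all genes. The higher one was lost without Control replicate 1 or 2 or 2MUT replicate 1 or 3, by DESeq2, without a filter, with a filter at 10 RPM and with the unmoderated test. Of the same 18 ligands, 1 could be tested under 2-HG and did not pass.

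Of 20 other receptors of the family, 8 were tested in 2MUT, of which 1 rose and 2 fell (median 0.01), and 7 under 2-HG, of which 3 rose and 3 fell (median 0.02), beside 33.8% and 32.8% of all genes past the threshold in either direction. Eda2r, the receptor of ectodysplasin A2, fell from 18.1 ± 1.45 to 5.79 ± 1.61 RPM in 2MUT (log2 fold change -1.52, adjusted p = 0.00028) and rose from 5.21 ± 0.488 to 13.1 ± 0.975 RPM under 2-HG (1.18, adjusted p = 0.00018). Tnfrsf11b (osteoprotegerin), a secreted receptor that binds RANKL and TRAIL, fell in both. It went from 36.9 ± 2.59 to 20.2 ± 1.45 RPM in 2MUT (-0.84, adjusted p = 0.00078) and from 27.9 ± 8.25 to 13.0 ± 0.329 RPM under 2-HG (-1.01, adjusted p = 0.0037). Tnfrsf21 (death receptor 6) rose from 3.93 ± 0.500 to 12.2 ± 1.22 RPM under 2-HG (1.42, adjusted p = 9.4e-05), and its change in 2MUT was 0.11 (adjusted p = 0.68). Tnfrsf9 (4-1BB) fell from 240.2 ± 7.50 to 121 ± 5.51 RPM under 2-HG (-0.98, adjusted p = 4.7e-05). Its change in 2MUT was 0.37 (adjusted p = 0.028), and that call was lost without Control replicate 2 (0.25) and without each of 2MUT replicates 1, 2 and 3 (0.40, 0.37 and 0.33).

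Among 26 tested adaptors and complex members, 5 rose and 3 fell in 2MUT (median 0.006), and 1 rose and 6 fell under 2-HG (median -0.22), beside 16.5% higher and 17.3% lower of all genes in 2MUT and 16.1% and 16.7% under 2-HG. The 5 that rose in 2MUT became 0 without 2MUT replicate 1, 1 without Control replicate 1, 2 without 2MUT replicate 3 and 3 without Control replicate 2 or 2MUT replicate 2. Under 2-HG, the 6 that fell became 3 without 2-HG(-) replicate 1 or 3, and the 1 that rose, Faf1, was past the threshold only in the fit without 2-HG(+) replicate 1 among those leaving out a library. Cflar, which encodes c-FLIP, the inhibitor of Casp8 at the receptor, fell from 19.8 ± 1.43 to 11.1 ± 2.93 RPM under 2-HG (-0.81, adjusted p = 0.0069). Its change in 2MUT was 0.22 (adjusted p = 0.31). Casp8 itself did not pass the test in either, at 0.17 (adjusted p = 0.44) and -0.06 (adjusted p = 0.70). Tradd was at -0.01 (adjusted p = 0.99) and 0.03 (adjusted p = 0.87), and Fadd had 1 read in the first table and is not listed in the second, as was the case for Cycs, and may not have been measured. Ripk1, the kinase of the receptor complex, rose from 19.4 ± 4.96 to 31.4 ± 4.46 RPM in 2MUT (0.69, adjusted p = 0.015). That call was lost without Control replicate 1 (0.63), Control replicate 2 (0.55) or 2MUT replicate 1 (0.59), and the change under 2-HG was -0.24 (adjusted p = 0.24). Rnf31 (HOIP), the ligase of the linear ubiquitin complex, fell from 50.5 ± 10.5 to 25.0 ± 3.19 RPM in 2MUT (-0.97, adjusted p = 0.0014). Daxx and Faf1, known as partners of Fas, fell in 2MUT by 0.60 (adjusted p = 0.008) and 0.59 (adjusted p = 0.0061). Tnip1, an inhibitor of NF-kB signaling, fell under 2-HG by 0.55 (adjusted p = 0.0021).

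Downstream of the receptors, 18 apoptosis genes were tested in each comparison. In 2MUT, 2 rose and 7 fell (median -0.06), and under 2-HG 2 rose and 2 fell (median -0.03), beside 16.5% higher and 17.3% lower of all genes in 2MUT and 16.1% and 16.7% under 2-HG. The number that rose in 2MUT was 5, with 6 lower, by DESeq2, 5 with the replicate block, 1 by edgeR or with a filter at 10 RPM and 0 without a filter or with the unmoderated test. Those that rose in 2MUT became 0 without 2MUT replicate 1 or 2 and 1 without Control replicate 3 or 2MUT replicate 3. Those that rose under 2-HG became 0 without 2-HG(-) replicate 1 and 1 without 2-HG(+) replicate 3. Htra2, a mitochondrial protease, fell in 2MUT from 112 ± 6.23 to 51.7 ± 2.75 RPM (-1.10, adjusted p = 3e-05). Mcl1, an inhibitor of apoptosis, fell by 0.42 under 2-HG (adjusted p = 0.013), and Bcl2l11 (Bim), a promoter of it, fell by 0.57 (adjusted p = 0.0087).

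Fas and Tnfrsf10b are known targets of p53, and Tnfrsf10b also of CHOP. Among 11 tested p53 targets, 3 rose and 2 fell in 2MUT (median -0.17), and 4 rose and 2 fell under 2-HG (median 0.26), beside 16.5% higher and 17.3% lower of all genes in 2MUT and 16.1% and 16.7% under 2-HG. In 2MUT the 3 that rose became 1 without any of the 2MUT replicates, and the 2 that fell became 1 in every fit leaving out a library except that without Control replicate 1. Under 2-HG the 2 that fell became 1 without 2-HG(-) replicate 2 or 3 or 2-HG(+) replicate 2 or 3. Cdkn1a (p21) was at 5.66, 6.15 and 4.86 RPM in 2-HG(-) and at 113, 30.0 and 30.3 RPM in 2-HG(+), where 1 library stood far above the others (2.88, adjusted p = 0.00082). Over the fits that left out 1 library each, its change was 2.25 to 3.19, the lowest without 2-HG(+) replicate 1. Aen, an exonuclease, rose from 14.7 ± 0.0386 to 30.3 ± 3.13 RPM under 2-HG (0.99, adjusted p = 0.00028), and Sesn1 fell from 35.1 ± 3.00 to 17.9 ± 2.89 RPM (-0.94, adjusted p = 0.00093). Sesn2, which limits mTORC1 and is also on the ATF4 list, rose in both, from 17.9 ± 5.65 to 41.1 ± 5.11 RPM in 2MUT (1.20, adjusted p = 0.0016) and from 8.46 ± 1.82 to 16.6 ± 2.80 RPM under 2-HG (0.91, adjusted p = 0.0045). In 2MUT, Plk2 fell from 275 ± 24.0 to 164 ± 14.2 RPM (-0.74, adjusted p = 0.00031). Of 10 ATF4 and CHOP stress genes, 9 rose under 2-HG (median 1.76), all but Cebpb (0.01, adjusted p = 0.96), and 4 rose and 1 fell in 2MUT (median 0.39), beside the same shares of all genes. The 1 that fell in 2MUT became 2 without Control replicate 3. Ddit3, which encodes CHOP, was at 39.4, 56.4 and 36.9 RPM in 2-HG(-) and at 176, 168 and 183 RPM in 2-HG(+) (1.99, adjusted p = 1.6e-05). In 2MUT it fell from 142 ± 42.8 to 56.7 ± 5.84 RPM (-1.26, adjusted p = 0.00055). A part of Ddit3 in the values of Tnfrsf10b was not tested. Atf3 rose in both, by 1.40 in 2MUT (adjusted p = 0.00016) and by 2.36 under 2-HG (adjusted p = 4.1e-06). Trib3 and Asns rose under 2-HG by 2.80 (adjusted p = 1.3e-05) and 2.40 (adjusted p = 1.9e-06).

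**Figure D3:**
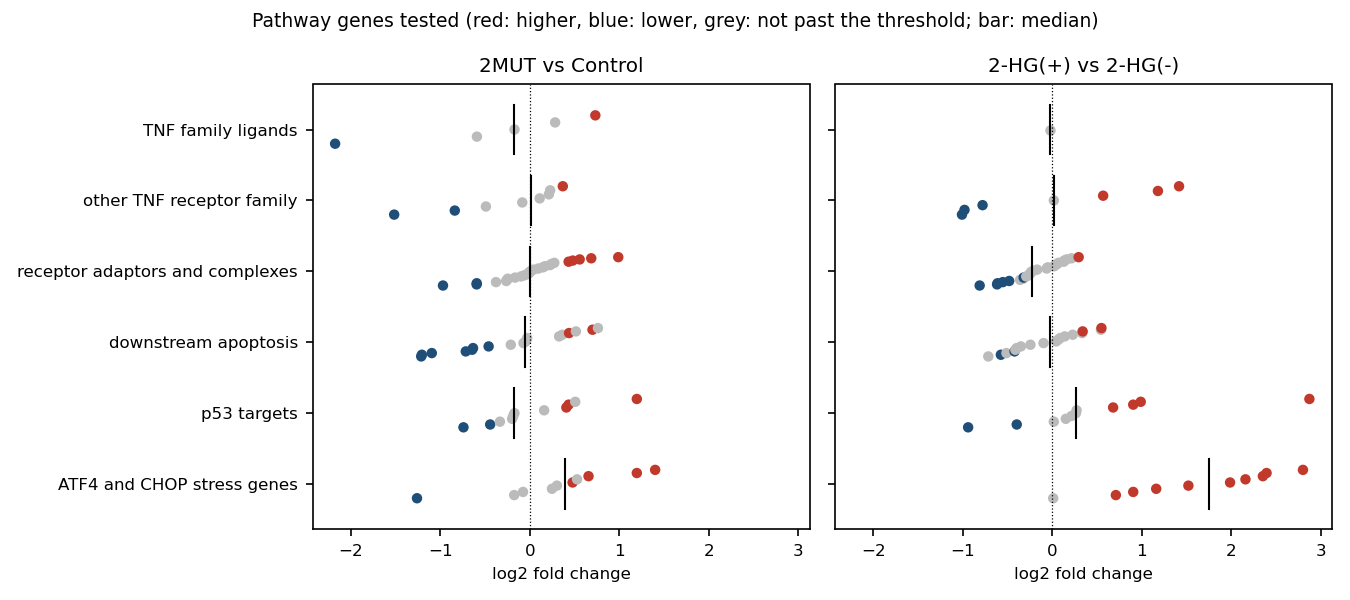
Log2 fold change on the log2(RPM + 1) scale (horizontal axes) of the tested genes of 6 pathway lists (rows), in 2MUT vs Control (left) and 2-HG(+) vs 2-HG(-) (right). Each point is a gene, red for higher, blue for lower and grey for genes not past the threshold, and black bars are medians, which reach 1.76 for the ATF4 and CHOP stress genes under 2-HG.

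The genes around the decoy receptors were examined by position. Of 37 genes annotated within 500 kb of the cluster, 28 were listed in the first table and 6 were tested, and 13 were listed in the second and 8 tested. In 2MUT 2 of the 6 rose and 1 fell, beside 16.5% and 17.3% of all genes. In 2MUT, Osbpl5, which starts 107 kb from Tnfrsf22, rose from 31.5 ± 3.97 to 54.2 ± 4.70 RPM (0.77, adjusted p = 0.0014). Nap1l4, 101 kb away on the other side, rose from 14.9 ± 1.88 to 24.5 ± 2.53 RPM (0.68, adjusted p = 0.0071). The imprinted cell cycle inhibitor Cdkn1c fell from 5.13 ± 0.734 to 0.998 ± 0.686 RPM (-1.66, adjusted p = 0.00087), and is named after its values were seen. At so low a level, the added 1 makes its change look smaller. Cars (0.24), Nadsyn1 (-0.18) and Dhcr7 (-0.09) did not pass. Neither rise exceeded 0.77, beside 4.61 and 4.34 for the decoy receptors. Under 2-HG, 2 of the 8 rose and 3 fell, beside 16.1% and 16.7% of all genes. Cars, a tRNA synthetase gene, rose from 79.6 ± 14.0 to 195 ± 15.2 RPM (1.30, adjusted p = 0.0001). Dhcr7, an enzyme of cholesterol synthesis, was at 0.44 (adjusted p = 0.013; 0.39 and not past the threshold without 2-HG(+) replicate 2). Osbpl5 was at -0.40 (adjusted p = 0.023), a call lost without 2-HG(-) replicate 1 (-0.42), 2 (-0.36) or 3 (-0.44) or 2-HG(+) replicate 3 (-0.32). The other neighbours past the threshold, Slc22a18 (-0.62) and Cdkn1c (-0.53), were below 5 RPM, where the added 1 makes changes look smaller. Both are named after their values were seen. No neighbour was past the threshold as lower under 2-HG (0) without 2-HG(-) replicate 1, 2-HG(-) replicate 2 or 2-HG(+) replicate 3, and 1 was without 2-HG(-) replicate 3.

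**Figure D4:**
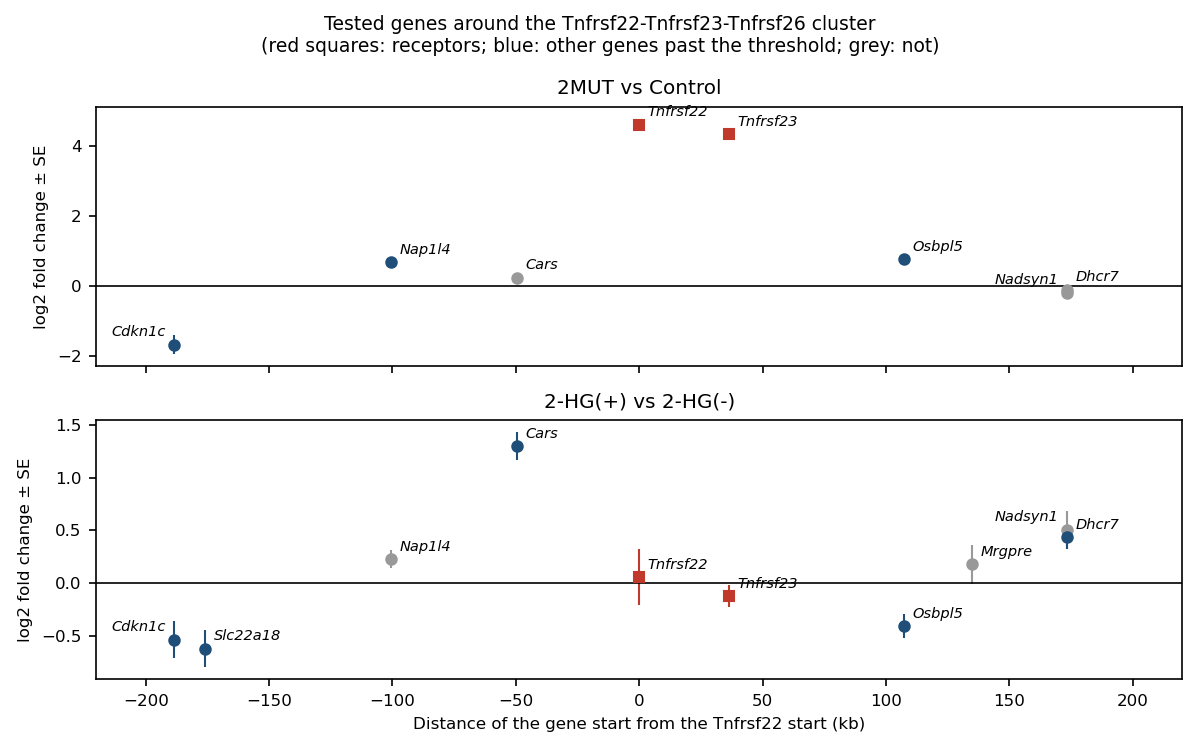
Log2 fold change ± SE (vertical axes, different ranges) of tested genes against the distance of their start from that of Tnfrsf22 in kb (horizontal axis), in 2MUT vs Control (top) and 2-HG(+) vs 2-HG(-) (bottom). Red squares are decoy receptors, blue points are neighbours past the threshold and grey points the others. In 2MUT the decoy receptors stand at 4.61 and 4.34 and the neighbours between -1.66 and 0.77 on the log2(RPM + 1) scale. The lowest value is that of Cdkn1c, whose low level makes its change look smaller.

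Over the 12 libraries, with each gene centred within its table, the 3 genes most like Tnfrsf22 among 9612 tested in both tables were Cpt1a (Pearson r = 0.985), Dusp1 (0.985) and Srsf6 (0.980), and r for Tnfrsf23 was 0.976. The libraries of a comparison share its group difference, and r is given as a description. Dusp1, a phosphatase of MAP kinases, was at 26.2 ± 2.83 RPM in Control and 198 ± 9.59 RPM in 2MUT, a log2 fold change of 2.87. It was at 43.6 ± 6.99 and 42.0 ± 7.53 RPM in 2-HG(-) and 2-HG(+). Cpt1a, the carnitine acyltransferase of fatty acid oxidation, and Srsf6, a splicing factor, changed less in 2MUT, by 0.95 and 0.81, and by 0.16 and -0.04 under 2-HG.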

How the data were processed

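RNA-seq values of 12 libraries were analysed. The authors used TMAP to align the Ion AmpliSeq reads and the AmpliSeqRNA plug-in for counting, and deposited 1 table of RPM per experiment. Each library summed to 1000000 within rounding, and 100% of values were whole multiples of 1 read (tolerance 0.0006 RPM). No column (0) was left unused, and 27 names in each table that had been turned into dates were kept as listed. The tests used limma 3.58.1 in R 4.3.3 with a trend on log2(RPM + 1), within each table, for genes averaging 1 RPM or more, with a Benjamini-Hochberg adjusted p under 0.05 over all genes tested as threshold. The fits were checked on simulated data with the same spread setting for every gene, which did not cover libraries that stand apart. The 15 alternatives per comparison were edgeR 4.0.16 and DESeq2 1.42.0 on the recovered reads, quantile normalization, median-of-ratios scaling, 0.1 in place of 1 before the logarithm, the filter dropped or raised to 10 RPM, an unmoderated test, the replicate block and each of 6 libraries left out. The receptors and lists were chosen with earlier results of these data known. Adjusted p-values of their genes, though taken over all genes tested, are therefore not from genes chosen blind to the data. Named in the text are all 8 receptors, from each list and the neighbours up to 4 genes a direction with the largest change past the threshold, no overlap and 10 RPM or more in the higher group, the cognate ligands, 5 adaptors and the 3 genes most like Tnfrsf22. Some genes that this rule names are given only in the counts, and some are not reported here. Coordinates and coding sequences come from GENCODE M21 on GRCm38. Depth sets the levels of 3 reads given with the libraries, and intervals do not cover PCR duplicates.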

Additional observations from a re-analysis of the deposited data

Results flagged for a closer look

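In 14 genes reported here, the 3 libraries of each group lay on opposite sides in the comparisons, higher than all reference libraries in one and lower than all in the other. Of all 9612 genes tested in both comparisons, 15.5% did so. The 14 are among 51 receptors and named genes tested in both, and most named ones were chosen for passing the threshold without overlap in at least 1 comparison, so the shares cannot be compared. Whether the changes differ between the comparisons was not tested. Log2 fold changes are given for 2MUT vs Control and then for 2-HG(+) vs 2-HG(-). Among the receptors these were Tnfrsf10b (-0.50 and 0.79) and Tnfrsf1b (0.47 and -0.22). Among other receptors and adaptors they were Eda2r (-1.52 and 1.18), Tnfrsf9 (0.37 and -0.98), Cflar (0.22 and -0.81), Faf1 (-0.59 and 0.30) and Tnip1 (0.24 and -0.55). Among apoptosis and stress genes they were Bcl2l11 (0.44 and -0.57) and Ddit3 (-1.26 and 1.99). Among p53 targets they were Aen (-0.19 and 0.99), Phlda3 (-0.44 and 0.26), Sesn1 (0.43 and -0.94) and Zmat3 (-0.20 and 0.68), and among the neighbours of the decoy receptors Osbpl5 (0.77 and -0.40). The values of Tnfrsf1b and Phlda3 under 2-HG and of Cflar, Tnip1, Aen and Zmat3 in 2MUT did not pass the test. When 1 library was left out, the call was lost in 5 of 6 fits for Sesn1 (0.32 to 0.44 in those fits) and Phlda3 (-0.49 to -0.34) in 2MUT and for Faf1 (0.26 to 0.34) under 2-HG. It was lost in 4 of 6 for Bcl2l11 (0.34 to 0.43) and Tnfrsf9 (0.25 to 0.40) in 2MUT and for Osbpl5 (-0.44 to -0.32) under 2-HG. For Sesn1 the libraries were all but Control replicate 2, for Phlda3 all but Control replicate 1 and for Faf1 all but 2-HG(+) replicate 1. For Bcl2l11 they were Control replicates 2 and 3 and 2MUT replicates 1 and 2, and those for the others are given with their values.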

How the results depend on the processing

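The directions of Tnfrsf22 and Tnfrsf23 in 2MUT and of Tnfrsf10b, Fas and Tnfrsf12a under 2-HG were kept under all alternatives run. The cause was not tested for any change below. With the unmoderated test, fewer genes passed: 1021 higher and 1223 lower in 2MUT, 1098 and 1139 under 2-HG, where the moderated test gave 1826, 1915, 1668 and 1737. Pathway genes higher in 2MUT were then 2 (15 before) and lower under 2-HG 6 (13 before), receptors under 2-HG 1 higher and 1 lower, and neighbours lower under 2-HG 0 (3 before). Tnfrsf10b in 2MUT (-0.50), Tnfrsf1a (-0.31) and Tnfrsf12a (0.74) under 2-HG then missed the threshold, and Fas in 2MUT (-0.23) passed it. For the receptors in 2MUT this is only a description, since that comparison was known when they were chosen. Without a filter, 1 receptor was lower under 2-HG, Tnfrsf1a being at -0.31. A filter at 10 RPM left 0 lower neighbours in 2MUT and 1 under 2-HG, and gave no value for Tnfrsf22 under 2-HG; quantile normalization left 1. Same-numbered replicates correlated at 0.07, 0.03 and 0.03 in 2MUT and at -0.46, -0.16 and 0.06 under 2-HG, so the numbers were not taken as pairs. With the replicate number as a block, receptors lower under 2-HG were 1 (Tnfrsf1a at -0.31), pathway genes lower 8, and neighbours 1 higher and 1 lower.

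Leaving out 1 library at a time gave 4 to 15 pathway genes higher and 1 to 2 receptors lower in 2MUT, and under 2-HG 1 to 2 receptors lower and 1 to 3 neighbours higher and 0 to 2 lower. The 15 pathway genes became 9 without Control replicate 1 and 4, 8 and 7 without 2MUT replicates 1, 2 and 3. Tnfrsf10b in 2MUT ranged from -0.59 to -0.42, and under 2-HG Tnfrsf1a from -0.38 to -0.25 and Tnfrsf22 from -0.13 to 0.31. Among the genes other than the receptors that the naming rule chose and that were past the threshold, including some not printed here, 10 of 25 in 2MUT and 7 of 26 under 2-HG missed it in at least 1 such fit. Signs turned in genes not past the threshold. In 2MUT the ranges were Asns -0.07 to 0.59, Cdkn1a -0.01 to 0.38, Mcl1 -0.09 to 0.01, Tnfrsf21 -0.06 to 0.26 and Tradd -0.34 to 0.27, and Tradd was at 0.00 with 0.1 added before the logarithm. Under 2-HG they were Ccng1 -0.07 to 0.33, Cebpb -0.09 to 0.13, Tradd -0.01 to 0.11 and Htra2 -1.41 to 0.62, the last without 2-HG(+) replicate 2. Cebpb was at -0.04 with quantile normalization, and Htra2 at 0.10 with edgeR and 0.11 with DESeq2.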
